A study of Mus musculus with 6 samples.

Results

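Perineuronal nets are a condensed extracellular matrix that wraps the cell bodies and proximal dendrites of many cortical neurons, above all the fast-spiking interneurons that express parvalbumin. A hyaluronan backbone at the cell surface carries the lecticans, a family of chondroitin sulfate proteoglycans, the link proteins clamp each lectican to hyaluronan, and tenascin-R ties the free ends of the lecticans together. Related assemblies of the same proteins lie around synapses and at the nodes of Ranvier, and astrocytes, oligodendrocyte precursors and neurons all contribute components. The 10 genes described here encode this set and were chosen by symbol from the 33000 genes of the count table. They are the lecticans Ncan, Bcan, Vcan and Acan, the transmembrane proteoglycan gene Cspg5, the link protein genes Hapln1, Hapln2 and Hapln4, and the tenascins Tnr and Tnc. Each symbol had a single row, and all 10 passed the filter on low counts.

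TruSeq libraries, in which mRNA is sequenced along its full length, were generated from frontal cortex of 3 wild-type (WT) mice and 3 mice homozygous for GFAP-IL6, 1 mouse per library. All 6 animals were 3 months old and are given as C57BL/6 in the labels. The GFAP-IL6 mouse expresses the inflammatory cytokine IL6 from a transgene under the promoter of Gfap, which directs it chiefly to astrocytes. The labels do not give the sex of the animals or say whether the WT mice were littermates.

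Counts were scaled to a library total of 1000000 (CPM) for comparison between libraries, with the total adjusted by TMM, a normalization for library composition. Library totals ranged from 11591066 to 16877001 counts in WT and from 7559524 to 11072008 in GFAP-IL6. The labels were checked with Il6, which had 0, 2 and 0 counts in the WT libraries and 12, 10 and 24 counts in GFAP-IL6, and with Gfap, the astrocyte intermediate filament gene, whose level was 94.5 ± 24.8 CPM (SD, n = 3) in the WT libraries and 678 ± 179 CPM (SD, n = 3) in GFAP-IL6 (edgeR adjusted p = 5.49e-06). Markers of cortical neurons, astrocytes and oligodendrocytes were all detected. WT replicate 3 stood apart by choroid plexus genes, with a summed level of 602 CPM over Ttr, Folr1, Kl and Clic6 against 3.14 to 58.6 CPM in the other 5 libraries. WT replicate 2 stood apart by striatal genes, with 199 CPM over 6 genes against 96.8 to 119 CPM.

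None of the 10 genes passed the test between genotypes. At an adjusted p under 0.05 by edgeR, 0 of 10 were higher and 0 of 10 were lower in GFAP-IL6, where 2.86% of the 15341 genes tested passed in either direction, 2.65% as higher and 0.209% as lower. With an absolute log2 fold change over 1 as a further requirement, 0 of 10 passed against 1.38% of all genes tested. DESeq2 also called 0 of 10, against 3.29% of the same genes. At an unadjusted p under 0.05 there were 2 genes by edgeR, Tnr with a higher fitted level and Hapln1 with a lower one, against 20.5% of all genes tested. By DESeq2 there was 1, against 15.4% of the same genes. The libraries of the genotypes did not overlap in 1 of 10 genes, Tnr, against 26.5% of all genes tested. The fitted log2 fold changes ran from -0.57 for Tnc to 0.27 for Tnr, with a median of 0.02 over the 10 genes beside -0.0038 over all genes tested. The half-width of the 95% interval was between 0.18 and 0.58 on the log2 scale, and the interval of Tnc alone reached past a log2 fold change of -1.

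**Figure D1:**
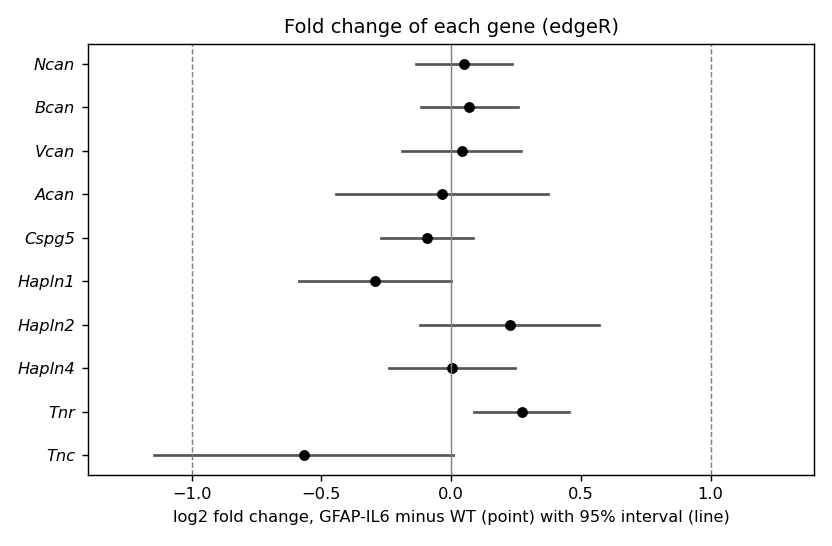
Log2 fold change of each gene between GFAP-IL6 and WT (x axis, GFAP-IL6 minus WT) by edgeR, with points for the estimates, horizontal lines for the 95% intervals, and dashed lines at log2 fold changes of -1 and 1. The intervals of Ncan, Bcan, Vcan, Acan, Cspg5, Hapln2, Hapln4 and Tnc include 0, that of Tnr runs from 0.09 to 0.46 and that of Hapln1 from -0.59 to -0.0022, before any adjustment for the number of genes tested.

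The levels of the 10 genes were compared per gene length as TPM (counts divided by gene length and scaled to a sum of 1000000 per library), since a long transcript collects more reads. Bcan had the highest level in WT, 214 ± 14.6 TPM (SD, n = 3), above 95.5% of all genes tested. Hapln4 followed at 121 ± 21.8 TPM, Cspg5 at 97.6 ± 4.35 TPM and Ncan at 94.5 ± 9.38 TPM (SD, n = 3 each). The WT ranges of Hapln4 and Cspg5 overlapped, as did those of Cspg5 and Ncan, so the order among these 3 genes was not settled in WT. Compared within each of the 6 libraries of both genotypes, Hapln4 was above Cspg5 in 5 and Cspg5 above Ncan in 1. Tnr had 50.6 ± 5.70 TPM, Hapln2 24.1 ± 2.82 TPM and Hapln1 20.1 ± 3.55 TPM (SD, n = 3 each). The ranges of Hapln2 and Hapln1 overlapped in WT, although Hapln2 was above Hapln1 within each of the 6 libraries. At the low end were Vcan with 5.42 ± 0.494 TPM, Acan with 1.85 ± 0.254 TPM and Tnc with 1.24 ± 0.298 TPM (SD, n = 3 each), and no neighbours among Hapln1, Vcan, Acan and Tnc overlapped in either genotype. The order in GFAP-IL6 was the same except that Ncan, at 103 ± 7.77 TPM, stood above Cspg5, at 96.1 ± 7.01 TPM (SD, n = 3 each), with overlapping ranges. TPM here divides by the length in the count table, which for 8 of the 10 genes was shorter than the exon bases of the gene in GENCODE M21, so that levels and the order of close neighbours depend on the lengths used. A level in tissue does not separate the number of cells that express a gene from the RNA per cell.

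**Figure D2:**
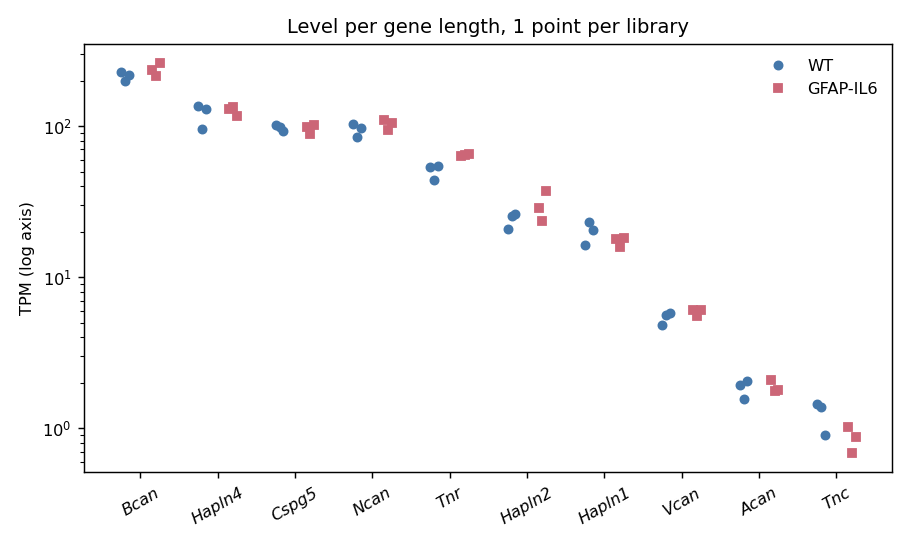
Level of each gene in TPM (y axis, log scale) in the 3 WT libraries (circles) and the 3 GFAP-IL6 libraries (squares), ordered by the WT mean. Bcan lies highest in both groups and Tnc lowest, with WT means of 214 and 1.24 TPM, and the points of the groups overlap for every gene except Tnr.

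Among the lecticans, which carry the chondroitin sulfate chains of the net, the levels in TMM-scaled CPM overlapped between genotypes in all 4 genes. Neurocan (Ncan, ENSMUSG00000002341.8, chromosome 8, 70093085 to 70120873, minus strand) is a secreted lectican of the brain made by neurons and astrocytes. Its levels were 259, 226 and 249 CPM in WT replicates 1, 2 and 3 and 266, 233 and 259.5 CPM in GFAP-IL6 replicates 1, 2 and 3. The groups overlapped, and the log2 fold change was 0.05 ± 0.09 (SE) with a 95% interval of -0.14 to 0.23. In fold terms the interval was 0.910 to 1.18.

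Brevican (Bcan, ENSMUSG00000004892.11, chromosome 3, 87987531 to 88000230, minus strand) is the lectican most abundant in the adult brain and surrounds synapses as well as nets. It had 249.5, 231 and 246 CPM in WT and 249, 233 and 281 CPM in GFAP-IL6. GFAP-IL6 replicate 3 was the highest library and the other GFAP-IL6 libraries lay inside the WT range. Its log2 fold change was 0.07 ± 0.09 (SE), with a 95% interval of -0.12 to 0.26.

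Versican (Vcan, ENSMUSG00000021614.14, chromosome 13, 89655312 to 89742509, minus strand) is a large lectican that oligodendrocyte precursors and other cells produce. Its levels were 22.8, 28.0 and 27.9 CPM in WT and 27.5, 25.8 and 27.9 CPM in GFAP-IL6. All 3 GFAP-IL6 values fell inside the WT range, and the log2 fold change was 0.04 ± 0.11 (SE), with a 95% interval of -0.19 to 0.27. Aggrecan (Acan, ENSMUSG00000030607.6, chromosome 7, 79053483 to 79115099, plus strand) is the lectican that most sharply marks nets around parvalbumin interneurons. It had 57, 72 and 87 counts in the WT libraries and 58, 34 and 41 counts in GFAP-IL6, or 4.96, 4.29 and 5.46 CPM and 5.20, 4.49 and 4.58 CPM. All 3 GFAP-IL6 values again fell inside the WT range. Acan had a log2 fold change of -0.04 ± 0.19 (SE), and its wider interval of -0.44 to 0.37 goes with its low counts.

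The make-up of the lectican pool was then compared. As a share of the summed TPM of the 4 lecticans, Bcan took 67.8% ± 0.525 in WT mice and 68.1% ± 1.56 in GFAP-IL6 mice (SD, n = 3 each), and Ncan took 29.9% ± 0.734 and 29.6% ± 1.45 (SD, n = 3 each). Vcan took 1.73% ± 0.256 and 1.70% ± 0.0689, and Acan 0.586% ± 0.0510 and 0.546% ± 0.0552 (SD, n = 3 each). The groups overlapped in each of these shares. The summed lectican level ran from 290 to 337 TPM in WT and from 316 to 372 TPM in GFAP-IL6.

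Neuroglycan C (Cspg5, ENSMUSG00000032482.7, chromosome 9, 110243783 to 110262576, plus strand) is a chondroitin sulfate proteoglycan that spans the membrane of neurons and glia and lies outside the lectican family. It had 349.8, 362 and 329 CPM in WT and 327, 301 and 347 CPM in GFAP-IL6. GFAP-IL6 replicates 1 and 2 lay under the WT range and replicate 3 inside it. The log2 fold change was -0.09 ± 0.08 (SE), and its 95% interval of -0.27 to 0.08 was the narrowest of the 10 genes.

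The link proteins bind a lectican and hyaluronan at the same time and so fix the proteoglycan in place. Hapln1 (ENSMUSG00000021613.8, chromosome 13, 89539796 to 89611652, plus strand), the link protein needed for compact nets on cortical interneurons, had 331, 734 and 599 counts in the WT libraries and 342, 210 and 285 counts in GFAP-IL6. This was 28.8, 43.8 and 37.6 CPM in WT and 30.7, 27.7 and 31.8 CPM in GFAP-IL6. WT replicates 2 and 3 were above every GFAP-IL6 library, while WT replicate 1 lay among them. Hapln1 had a log2 fold change of -0.29 ± 0.13 (SE). By edgeR the unadjusted p was 0.0485 and the adjusted p 0.241. This value turned on single WT libraries. Without WT replicate 1 the log2 fold change was -0.43 (edgeR adjusted p = 0.0314), and without WT replicate 2 it was -0.15 with an adjusted p of 0.569. WT replicate 2, the highest library for Hapln1, was also the library with the most striatal RNA by markers, and the part of these markers in the level of Hapln1 was not tested.

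Hapln2 (ENSMUSG00000004894.8, chromosome 3, 88021750 to 88027583, minus strand), a link protein found at the nodes of Ranvier of myelinated axons, had 12.5, 16.0 and 16.1 CPM in WT and 16.7, 14.0 and 21.8 CPM in GFAP-IL6. The groups overlapped, and GFAP-IL6 replicate 3 was the highest library. The log2 fold change was 0.23 ± 0.16 (SE), with a 95% interval of -0.12 to 0.57 and an edgeR adjusted p of 0.441. Without GFAP-IL6 replicate 3 the log2 fold change was 0.046. Hapln4 (ENSMUSG00000007594.9, chromosome 8, 70083457 to 70090862, plus strand), a brain link protein that goes together with brevican, had 171, 127 and 167 CPM in WT and 156, 166 and 143 CPM in GFAP-IL6. All GFAP-IL6 values fell inside the WT range, and the log2 fold change was 0.0030 ± 0.11 (SE), with a 95% interval of -0.24 to 0.24. Of the summed TPM of the 3 link proteins, Hapln4 took 72.8% ± 6.14 in WT mice and 72.8% ± 4.74 in GFAP-IL6 mice (SD, n = 3 each). The share of Hapln1 was 12.4% ± 3.44 and 9.99% ± 0.781, and that of Hapln2 was 14.8% ± 2.72 and 17.2% ± 4.01 (SD, n = 3 each), with overlapping groups in both.

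Link protein genes lie beside lectican genes in the genome. By GENCODE M21 on GRCm38, the assembly of mm10, no protein-coding gene lies between the partners of any pair. The gap is 21519 bases between Bcan and Hapln2, 2222 bases between Ncan and Hapln4, and 43659 bases between Vcan and Hapln1. Acan ends 2 bases before Hapln3, a link protein gene with 5 to 10 counts per library that did not pass the filter. The fitted log2 fold changes within a pair were 0.07 and 0.23 for Bcan and Hapln2, 0.05 and 0.0030 for Ncan and Hapln4, and 0.04 and -0.29 for Vcan and Hapln1, none of them past the threshold. No exon of a lectican, of Cspg5 or of a link protein among the 10 genes was shared with another gene of this annotation.

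Tenascin-R (Tnr, ENSMUSG00000015829.11, chromosome 1, 159523769 to 159931729, plus strand) is the tenascin of the adult central nervous system, which binds the free ends of lecticans and is made by oligodendrocyte lineage cells and some neurons. It had 2625, 3344 and 3791 counts in the WT libraries and 2913, 2041 and 2453 counts in GFAP-IL6, or 229, 199 and 238 CPM and 261, 269.5 and 274 CPM. Every GFAP-IL6 library lay above every WT library, and the spread among the GFAP-IL6 libraries was 6.47 CPM (SD, n = 3). Tnr had a log2 fold change of 0.27 ± 0.08 (SE), a fold of 1.21 with a 95% interval of 1.06 to 1.37. The unadjusted p was 0.00709 and the adjusted p was 0.111 by edgeR and 0.0929 by DESeq2, so Tnr did not pass over all genes tested. Across the 12 alternatives its log2 fold change stayed between 0.20 and 0.32 and its adjusted p between 0.0662 and 0.364. The lowest, 0.20 (edgeR adjusted p = 0.187), came without WT replicate 2, the lowest library for Tnr. WT replicate 2 was also the library with the most striatal RNA by markers, and the part of these markers in the level of Tnr was not tested. Gm38039, an antisense gene with 156 to 424 counts per library, shares 443 exon bases or 3.44% of those of Tnr, and reads there cannot be told apart because the strand used in counting was not stated.

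Tenascin-C (Tnc, ENSMUSG00000028364.13, chromosome 4, 63959785 to 64047015, minus strand) is the tenascin of the developing brain and of injured tissue and is a known product of reactive astrocytes. It had the fewest counts of the 10 genes, 45, 67 and 40 in WT and 30, 14 and 21 in GFAP-IL6, which is above the floor of 3 counts in every library. The levels were 3.92, 4.00 and 2.51 CPM in WT and 2.69, 1.85 and 2.34 CPM in GFAP-IL6. WT replicates 1 and 2 lay above every GFAP-IL6 library, whereas WT replicate 3 lay among them. The log2 fold change was -0.57 ± 0.27 (SE), with a 95% interval of -1.15 to 0.0086, an unadjusted p of 0.0530 and an edgeR adjusted p of 0.250. Without WT replicate 3, the lowest WT library, the log2 fold change of Tnc was -0.76 (edgeR adjusted p = 0.158). Without WT replicate 2, the highest library, it was -0.43 (edgeR adjusted p = 0.513), and without GFAP-IL6 replicate 2, the lowest of its group, -0.45 (edgeR adjusted p = 0.452). Gfap across all 6 libraries had a log2 fold change of 2.84 ± 0.20 (SE), and the relation of Tnc to Gfap was not tested. The counts of Gfap do not separate the endogenous gene from the transgene. A noncoding gene on the opposite strand, 8030451A03Rik, shares 176 exon bases with Tnc and was not analysed here.

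**Figure D3:**
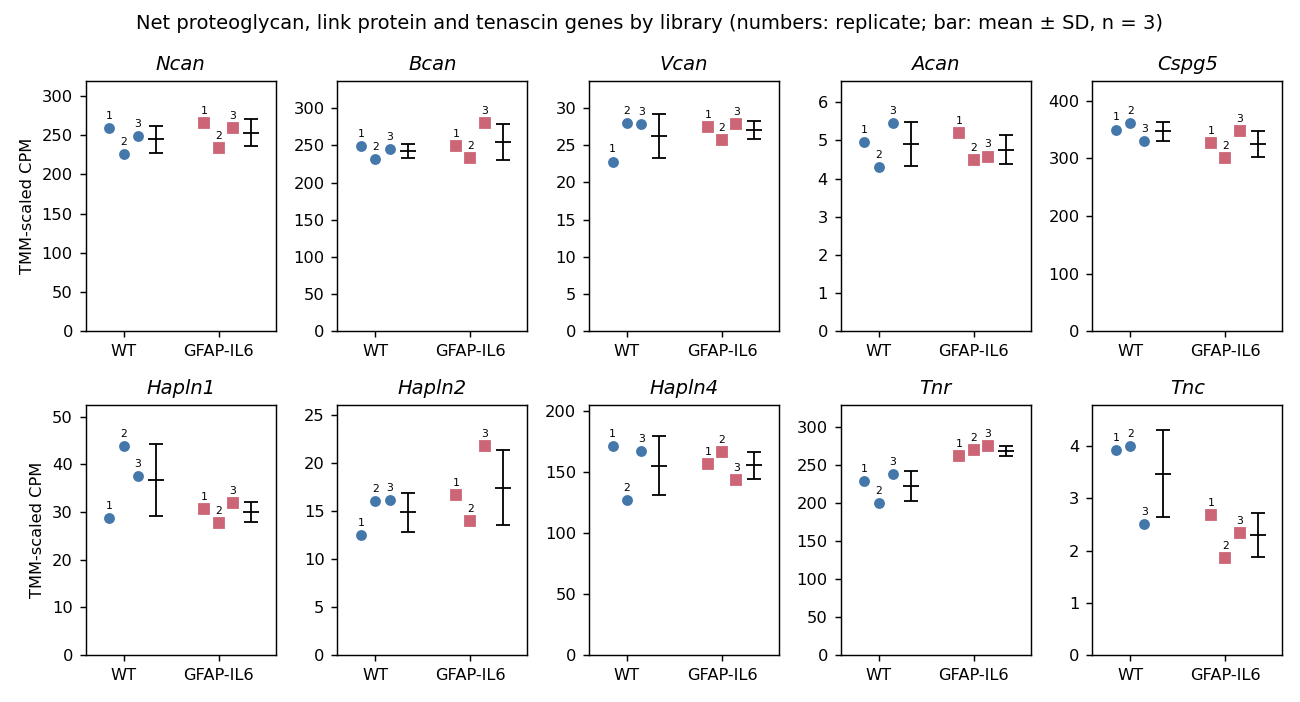
TMM-scaled CPM of each gene (y axis, starting at 0) in the WT libraries (circles) and GFAP-IL6 libraries (squares), numbered by replicate, with the mean and SD of each group (n = 3) beside the points. Tnr is the gene in which the groups do not overlap, and in Hapln1 and Tnc a single WT library lies within the GFAP-IL6 range.

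The genes that build, modify, cut and bind this matrix were examined as 6 lists with 62 genes, of which 57 passed the filter on low counts. None was past an adjusted p of 0.05 by edgeR, and 1, Spock3, was by DESeq2, beside 2.86% and 3.29% of all genes tested. At an unadjusted p under 0.05 by edgeR there were 7 higher and 3 lower genes of 57, beside 11.1% higher and 9.37% lower among all genes tested. By DESeq2 7 of the 57 had an unadjusted p under 0.05, beside 15.4% of all genes tested. The groups did not overlap in 10 higher and 4 lower genes, against 13.8% and 12.7% of all genes tested.

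Of the 8 genes of hyaluronan synthesis and turnover 6 were tested, and all 6 had a fitted value above 0. Among all genes tested, 50.6% were fitted below 0. The median log2 fold change of the 6 was 0.26 beside -0.0038 over all genes tested, and 0 of them passed the threshold. Cemip, which takes part in the breakdown of hyaluronan, had 30.3 ± 2.83 CPM in WT mice and 37.8 ± 0.336 CPM in GFAP-IL6 mice (SD, n = 3 each), without overlap and with an edgeR adjusted p of 0.0985. Hyal1, a lysosomal hyaluronidase, had 4.06 ± 1.03 and 5.51 ± 0.952 CPM (SD, n = 3 each) and a log2 fold change of 0.43 (edgeR adjusted p = 0.313), which was 0.25 without WT replicate 2 and 0.65 without WT replicate 3. Of its exon bases, 50.8% are shared with Naa80 on the same strand. Has1 and Has3, the hyaluronan synthases that passed the filter, had log2 fold changes of 0.66 and 0.011, with adjusted p values of 0.323 and 0.971 by edgeR.

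The enzymes that start and extend the chondroitin sulfate chain were split evenly, 6 higher and 6 lower in fitted value, with a median log2 fold change of -0.01. B3gat3, which completes the linker between core protein and chain, had 123 ± 4.74 CPM in WT mice and 108 ± 1.45 CPM in GFAP-IL6 mice (SD, n = 3 each) and an edgeR adjusted p of 0.214. Csgalnact1, which adds the first chondroitin sugar, had 28.8 ± 1.80 and 24.7 ± 2.25 CPM (SD, n = 3 each) and an edgeR adjusted p of 0.248. In both genes every GFAP-IL6 library lay under every WT library.

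Among the sulfotransferases and epimerases, which set the sulfation pattern of the chain, 7 of 9 tested genes were higher in fitted value, with a median log2 fold change of 0.11. Chst14, which sulfates dermatan chains, had 14, 18 and 22 counts in the WT libraries and 18, 20 and 20 counts in the shallower GFAP-IL6 libraries, or 1.22 ± 0.154 and 2.16 ± 0.517 CPM (SD, n = 3 each), and its log2 fold change was 0.79 ± 0.29 (SE, edgeR adjusted p = 0.170). Chst11, a sulfotransferase of chondroitin, had 54.6 ± 2.14 CPM in WT mice and 61.7 ± 3.46 CPM in GFAP-IL6 mice (SD, n = 3 each) and an edgeR adjusted p of 0.247.

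Of the lectican proteases and Timp3, an inhibitor of several of them, 3 were higher and 4 lower in fitted value, with a median log2 fold change of -0.0061. Adamts1, which cuts lecticans, had 9.66 ± 0.426 CPM in WT mice and 12.5 ± 2.31 CPM in GFAP-IL6 mice (SD, n = 3 each) without overlap and with an edgeR adjusted p of 0.186. Timp3 had 108 ± 8.33 and 95.5 ± 8.54 CPM (SD, n = 3 each) and an edgeR adjusted p of 0.281. Of the exon bases of Timp3, 21.3% are shared with Syn3 on the opposite strand.

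The matrix receptors had a median log2 fold change of 0.12, with 8 of 11 genes higher in fitted value. Lrp1, an endocytic receptor, had 474 ± 125 CPM in WT mice and 625 ± 25.0 CPM in GFAP-IL6 mice (SD, n = 3 each) and a log2 fold change of 0.40 (edgeR adjusted p = 0.172). WT replicate 2 was the lowest library and also had the most striatal RNA by markers. The part of these markers in the level of Lrp1 was not tested. Without WT replicate 2 the log2 fold change of Lrp1 was 0.20 (edgeR adjusted p = 0.215), and without WT replicate 1 it was 0.56 (edgeR adjusted p = 0.0371). Nrp1, the receptor of the semaphorin that binds to nets, had 34.3 ± 3.13 and 42.0 ± 6.41 CPM (SD, n = 3 each) and an edgeR adjusted p of 0.191.

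The remaining brain proteoglycans and matrix proteins had a median log2 fold change of 0.10, with 8 of 12 genes higher in fitted value. Spock3, a testican with glycosaminoglycan chains, came nearest to the threshold of all 57 genes. Its levels were 71.4, 105 and 80.5 CPM in WT and 60.3, 61.4 and 62.0 CPM in GFAP-IL6. Every GFAP-IL6 library lay under every WT library, with a log2 fold change of -0.49 ± 0.12 (SE). The adjusted p was 0.0550 by edgeR and 0.0104 by DESeq2. Without WT replicate 2, the highest library, the log2 fold change was -0.32 (edgeR adjusted p = 0.0381), and when a GFAP-IL6 library was left out the edgeR adjusted p was 0.159 to 0.235. WT replicate 2 also had the most striatal RNA by markers, and the part of these markers in the level of Spock3 was not tested. Cspg4, the NG2 proteoglycan of oligodendrocyte precursors and pericytes, had 19.5, 16.0 and 17.4 CPM in WT and 22.2, 22.7 and 27.0 CPM in GFAP-IL6. The groups did not overlap, and the log2 fold change was 0.45 ± 0.12 (SE, edgeR adjusted p = 0.0651). Without WT replicate 1 it was 0.52 (edgeR adjusted p = 0.0282), and without GFAP-IL6 replicate 3, the highest library, 0.36 (edgeR adjusted p = 0.329).

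**Figure D4:**
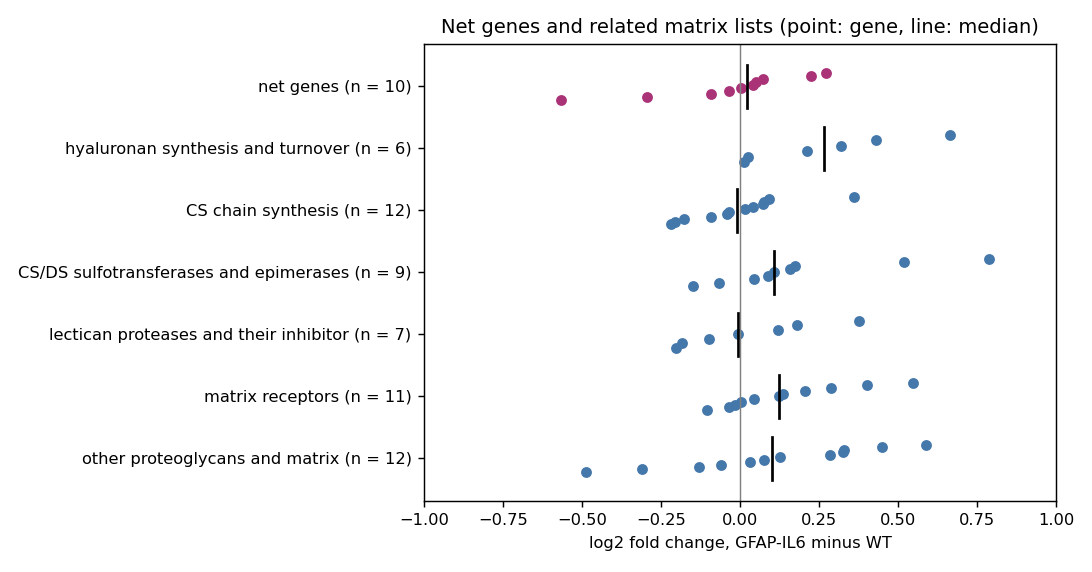
Log2 fold change between GFAP-IL6 and WT (x axis, GFAP-IL6 minus WT) of the 10 net genes and of the tested genes in each related list (CS, chondroitin sulfate; DS, dermatan sulfate), with a point per gene and a black line at the median of each list. The medians lie between -0.01 and 0.26, and no point passed an adjusted p of 0.05 by edgeR.

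The cells that make these genes were followed through marker lists in the same libraries. The 5 other oligodendrocyte precursor markers beside Cspg4 had fitted log2 fold changes between -0.14 and 0.20, none past the threshold, and the summed level of the whole list of 6 was 230 to 281 CPM in WT and 249 to 321 CPM in GFAP-IL6. Oligodendrocyte markers ran from 3225 to 5940 CPM in WT and from 3246 to 5068 CPM in GFAP-IL6, with 6 of 6 genes lower in fitted value and 0 past the threshold. For parvalbumin interneurons the range was 436 to 516 CPM in WT and 454 to 485 CPM in GFAP-IL6. By gene, 3 of 4 were lower and 1 higher in fitted value, with 0 past the threshold. Pvalb, the lowest of them, had a log2 fold change of -0.32 ± 0.10 (SE, edgeR adjusted p = 0.123) and overlapping groups. The summed level of the neuronal markers was 5921 to 6838 CPM in GFAP-IL6 against 6915 to 7297 CPM in WT, without overlap. Snap25 made up the largest part, with means of 3238 CPM in WT and 2817 CPM in GFAP-IL6, and its own groups did not overlap. The separation of the sum was not examined without Snap25. By gene, 5 of 6 were lower in fitted value and 0 past the threshold. In 3 of 6 every GFAP-IL6 library lay under every WT library, against 12.7% of all genes tested. Over all these lists 0 of 22 genes passed an adjusted p of 0.05 by edgeR and 0 by DESeq2, and 5 of 22 had an unadjusted p under 0.05 by edgeR, beside 20.5% of all genes tested.

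Most of the microglial and endothelial markers were higher in GFAP-IL6, where 2.65% of all genes tested passed as higher. Of the microglial markers, 4 of 5 were past the threshold and higher. The other, P2ry12, had a log2 fold change of -0.27 ± 0.14 (SE, edgeR adjusted p = 0.291). The sum of all 5 was 215 to 255 CPM in WT and 352 to 421 CPM in GFAP-IL6. Of the endothelial markers, 3 of 4 were past the threshold and higher, with sums of 87.7 to 107 CPM in WT and 154 to 179 CPM in GFAP-IL6. Astrocyte markers summed to 4346 to 5530 CPM in WT and 5347 to 6481 CPM in GFAP-IL6, and 1 of 6, Gfap, passed the threshold by edgeR. By DESeq2 2 of 6 passed, the other being Aqp4 (adjusted p = 0.0392). By gene, 4 of 6 were higher and 2 lower in fitted value. The lower ones were Aldh1l1, at -0.21 (edgeR adjusted p = 0.235), and Slc1a3, at -0.04. In Aldh1l1 every GFAP-IL6 library lay under every WT library. Gfap itself is part of the sum, with means of 94.5 CPM in WT and 678 CPM in GFAP-IL6. The part of these shifts in the fitted values of the net genes was not tested.

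**Figure D5:**
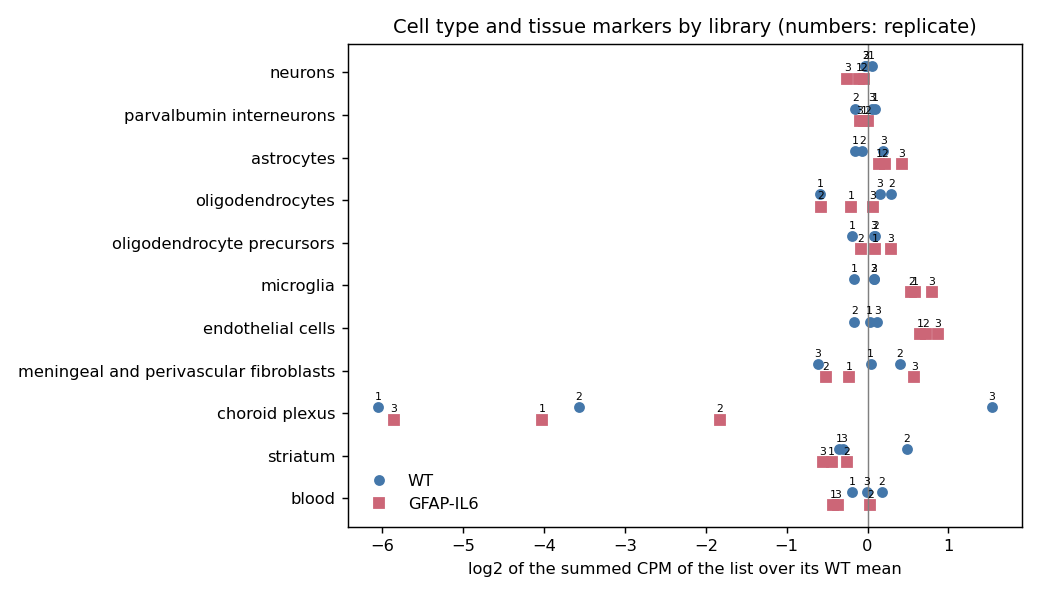
Summed TMM-scaled CPM of each marker list in each library, as the log2 ratio to the mean of the WT libraries (x axis), for WT (circles) and GFAP-IL6 (squares), numbered by replicate. Microglial and endothelial lists of the GFAP-IL6 libraries lie to the right of all WT libraries, WT replicate 3 lies far right in the choroid plexus list, and WT replicate 2 in the striatal list.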

How the data were processed

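The authors deposited raw counts per gene for each of the 6 libraries. They aligned the TruSeq reads to mm10 with STAR (version 2.4 in the submitters' processing notes) and counted them on GENCODE genes with featureCounts. The genome build in those notes is a human one, whereas the table holds mouse gene identifiers. Whether the counting used strand was not given in the sources used here.

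Sample titles gave the group and the replicate number. Differential expression was tested by the edgeR 4.0.16 quasi-likelihood test in R 4.3.3, with TMM scaling, the filterByExpr filter, no covariate and p-values adjusted by Benjamini-Hochberg over all 15341 genes passing the filter. DESeq2 1.42.0, the tool of the study, was run as an alternative. Standard errors were derived from the F statistic, and intervals are at 95% for a single gene. TPM was computed from the gene length in the table, another column of the deposited file that holds no measurement. Total counts per library were between 7559524 and 16877001, and intervals include the spread between mice. A count of 3 or fewer was taken as the floor of detection, 0.179 to 0.396 CPM, which covers counting error only. No pair of libraries agreed within sampling noise, with a chi-square per degree of freedom of 2.23 or more over genes. It was highest in the pairs with WT replicate 2, the deepest library, at 11.6 to 20.1. The edgeR and DESeq2 fits were tested on simulated counts.

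The 10 genes, the 6 lists of related genes and the marker lists were chosen from general knowledge with earlier results of these data known. All 10 genes were named, and of each list the genes past an adjusted p of 0.05 or, with fewer than 2 such genes, the 2 with the smallest unadjusted p. Has1, Has3, Pvalb, Snap25, P2ry12, Aqp4, Aldh1l1 and Slc1a3 were named outside this rule, after their values were seen. Alternatives were DESeq2, its size factors within edgeR, no filter, a mean CPM of at least 1, thinning to the smallest library, the replicate number as a block, each library left out in turn, and CPM in place of TPM.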

Additional observations from a re-analysis of the deposited data

How the results depend on the processing

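The number of net genes past an adjusted p of 0.05 was 0 under every alternative that kept all libraries, and 0 to 1 when a library was left out, the 1 being Hapln1 without WT replicate 1. In that fit 6.83% of all genes tested passed. The direction of Cspg5, Tnr, Tnc, Hapln1 and Hapln2 was kept under all 12 alternatives. The other 5 genes, whose fitted values lie near 0, changed sign when a library was left out, with log2 fold changes of -0.0072 to 0.10 for Ncan, -0.0022 to 0.13 for Bcan, -0.043 to 0.087 for Vcan, -0.13 to 0.054 for Acan and -0.12 to 0.079 for Hapln4. Hapln4 was also at -0.0024 with DESeq2 and -0.00025 without the filter. The cause was not tested. The number of related matrix genes past the threshold was 1 with DESeq2 (Spock3) and 1 after thinning (Spock3). Without the filter it was 3 (Spock3, Cspg4 and Lrp1), and when a library was left out it was 0 to 5. Spock3, Cspg4, Lrp1, Gpc5 and Rtn4rl2 were past it without WT replicate 1, and Spock3 without WT replicate 2. The share of all genes tested was 5.1% without the filter and 2.84% after thinning. It was 6.83% without WT replicate 1 and 3.27% without WT replicate 2. With DESeq2 it was 3.29% of the genes tested by edgeR. Of all genes, 1154 passed without the filter and 187 to 1061 when a library was left out, lowest without GFAP-IL6 replicate 3 and highest without WT replicate 1, and 282 passed without GFAP-IL6 replicate 2. Those past a log2 fold change of 1 as well numbered 211, and 129 to 239 when a library was left out, lowest without GFAP-IL6 replicate 3. Ordered by CPM, which is not divided by length, Cspg5 ranked 1 and Bcan 3 in WT, and only Acan and Tnc kept their rank.

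The replicate numbers were shared between groups, and whether they pair the mice was not settled. The correlation of deviations across genes was 0.0996, 0.0147 and 0.0211 for the libraries numbered 1, 2 and 3. For libraries with unlike numbers it ran from -0.0770 to 0.0524, highest for WT replicate 2 with GFAP-IL6 replicate 3. With the replicate number as a block, 750 genes passed in place of 439. None of the net genes passed with the block, and 2 related matrix genes did, Spock3 (adjusted p of 0.0274) and Cspg4 (0.0485), beside 4.89% of all genes tested. At this depth Acan and Tnc, with 14 to 87 counts per library, had the widest intervals of the 10 genes.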

Other observations

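Hapln2 was set against the oligodendrocyte markers of the same library, a ratio chosen after the values were seen. Hapln2 had 3.89, 2.70 and 3.01 CPM per 1000 CPM of these markers in WT and 3.95, 4.31 and 4.30 in GFAP-IL6, so that every GFAP-IL6 library lay above every WT library, by a small margin over WT replicate 1. WT replicate 1 and GFAP-IL6 replicate 2 had the lowest sums of oligodendrocyte markers, 3225 and 3246 CPM, and the lowest levels of Hapln2 in their groups. Acan, set against the parvalbumin interneuron markers in the same way, had 9.63, 9.85 and 10.9 CPM per 1000 CPM in WT and 11.0, 9.25 and 10.1 in GFAP-IL6, with overlapping groups. Tnr, set against the oligodendrocyte precursor markers, had 992, 710 and 859 CPM per 1000 CPM in WT and 933, 1084 and 854 in GFAP-IL6. The means were 854 and 957, with overlapping groups. WT replicate 1, highest of the WT libraries in this ratio, had the lowest sum of these markers, 230 CPM. The ratio of Tnr to Tnc in TPM was 37.2, 31.8 and 60.4 in WT and 61.8, 92.8 and 74.4 in GFAP-IL6, without overlap and chosen after the values were seen, and it rests on 14 to 67 counts of Tnc per library. None of these ratios was among the planned comparisons, and no test was run on them.

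Of the matrix genes that did not pass the filter on low counts, Has2, the hyaluronan synthase of many connective tissues, had 1, 8 and 10 counts in the WT libraries and 7, 2 and 1 in GFAP-IL6. Tnn, a further tenascin, had 4, 8 and 5 counts in the WT libraries and 1, 4 and 1 in GFAP-IL6. Cd44, the hyaluronan receptor of glia and leukocytes, did pass and varied within the GFAP-IL6 group, with 39, 9 and 38 counts against 20, 43 and 30 in WT, and its log2 fold change was 0.55 ± 0.36 (SE, edgeR adjusted p = 0.403). These genes were named after their values were seen.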
